A study of Homo sapiens with 26 samples.

Results

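The comparison described here sets Panc10.05 cells induced to express the P1-a2 isoform of HNF4A against Panc10.05 cells induced to express the P2-a8 isoform. It holds 4 of the 26 RNA-seq libraries of the series, 2 for each isoform, chosen by the cell line and genotype in the labels. Panc10.05 is an established human pancreatic ductal adenocarcinoma cell line. P1-a2 cells received 25 ng/mL doxycycline and P2-a8 cells 12.5 ng/mL, so that isoform and dose changed together and cannot be told apart. A Panc10.05 control with an inducible GFP construct, called NC in the labels, received 25 ng/mL and gave 2 libraries. P2-a8 and NC thus differed in dose as well as in construct. In BxPC3, a pancreatic ductal adenocarcinoma line in which P1-a2, P2-a8 and an empty-vector NC were all given 500 ng/mL, each group again gave 2 libraries. All of these cells carried a construct, were given doxycycline and grew in the same medium, and poly(A) RNA was sequenced from each. The promoter of the constructs, the length of induction, and whether a population was 1 clone are not given in the sources used here. The labels do not say that replicates came from separate cultures, so p-values measure only the spread between these libraries, which may be technical.

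HNF4A encodes hepatocyte nuclear factor 4 alpha, a nuclear receptor that binds DNA as a homodimer and is known for driving liver, intestine and pancreas programmes. Its gene has a pair of promoters, P1 and P2, whose transcripts differ at the 5' end. P1 proteins keep an N-terminal activation domain that P2 proteins lack, and adult liver is known mainly for P1 forms while pancreas expresses P2 forms.

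Total counts were between 34618745 and 46827673 per Panc10.05 library, and the median log2 fold change over all genes tested, P1-a2 against P2-a8, was 0.00. Mitochondrial transcripts took 4.93% to 5.36% of counts in P1-a2, 5.48% to 5.52% in P2-a8 and 5.51% to 5.98% in NC. The ductal epithelial markers KRT7, KRT8, KRT18, KRT19, EPCAM, CDH1, SOX9 and MUC1 were present in every Panc10.05 library. The summed level of all 10 ductal markers was 7695 to 8763 CPM (CPM, counts scaled to a common library size by TMM) in P1-a2, 9740 to 10230 in P2-a8 and 5932 to 5991 in NC; 7 of the 9 that passed the filter on low counts were lower in P1-a2 libraries (4 without P1-a2 replicate 1) and 1 was higher. Of 8 leukocyte markers 5 were at 3 counts or fewer in all 6 Panc10.05 libraries. Among them were PTPRC, which defines leukocytes, and CD3D, CD3E and MS4A1. CD68 was higher under P1-a2, a call lost without P2-a8 replicate 2 (log2 fold change 0.34). CD14 was lower, and LAPTM5 did not pass the threshold. Of 8 fibroblast markers 5 were at 3 counts or fewer; ACTA2 (2.21 and 3.28 CPM against 1.03 and 0.789 CPM) and PDGFRB (0.411 and 0.370 CPM against 0.0855 and 0.141 CPM) were higher under P1-a2, and COL1A1 (4.26 and 5.15 CPM against 6.56 and 6.99 CPM) was lower. Left-out libraries changed these fibroblast counts to 1 higher (without either P1-a2 library or without P2-a8 replicate 1) and 0 lower (without P1-a2 replicate 1). The summed level of the 8 leukocyte markers was 8.94 to 10.3 CPM in P1-a2, 8.03 to 8.35 in P2-a8 and 6.93 to 7.18 in NC, and that of the 8 fibroblast markers was 6.93 to 8.85, 7.67 to 7.97 and 6.03 to 6.46 in the same order. Their part in the results was not tested.

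HNF4A itself (ENSG00000101076, GRCh38 chromosome 20, 44355700 to 44434596) was measured first. Its level was 10.7 and 13 CPM in the P1-a2 libraries, 37.6 and 37.6 CPM in the P2-a8 libraries, and 0.240 and 0.058 CPM in NC. Both induced groups were thus far above the control without overlap, and P2-a8 was higher than P1-a2 although it had the lower doxycycline dose. The level under P1-a2 was 3.17-fold lower (log2 fold change -1.66 ± 0.10 SE, adjusted p = 5.02e-17, edgeR's quasi-likelihood test with Benjamini-Hochberg adjustment over all genes). In BxPC3 the same transcript was at 9.76 and 11.6 CPM with P1-a2 against 12.6 and 14.2 CPM with P2-a8, a difference not past the threshold (difference on the log2 scale -0.33 ± 0.17 SE, adjusted p = 0.217). Gene counts do not tell a construct's transcript from the cell's own, nor one isoform from the other. Every difference below therefore combines the isoform, the dose and the level of HNF4A transcript, and their shares cannot be told apart. Each isoform was also carried by its own cells, so a property of those cells cannot be told apart from these either. HNF4G, the paralogue that binds the same sites, was at 5.62 and 6.54 CPM with P1-a2, 9.44 and 9.04 CPM with P2-a8, and 8.12 and 7.27 CPM in NC. It was 1.52-fold lower under P1-a2 (log2 fold change -0.60 ± 0.12 SE, adjusted p = 8.11e-05).

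The isoform groups differed across a large part of the transcriptome. Of 17247 genes tested, 8090 (46.9%) passed an adjusted p of 0.05: 3837 (22.2%) were higher and 4253 (24.7%) lower under P1-a2. Most of these differences were small, with a median absolute log2 fold change of 0.46 among the genes past the threshold. At least 2-fold changes were past the threshold for 515 higher genes (2.99%) and 940 lower genes (5.45%). The 2 libraries of one isoform did not overlap those of the other for 72.9% of all genes tested. Against the shared NC libraries, 10699 genes (62.0%) passed under P1-a2, 31.5% higher and 30.5% lower, and 7973 genes (46.2%) passed under P2-a8, 23.7% higher and 22.5% lower. These shares are the background for every count of list members below.

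Among genes with a mean of at least 5 CPM and groups that did not overlap, APOA2 had the largest rise under P1-a2. APOA2, which encodes an apolipoprotein of high-density lipoprotein made by hepatocytes, was at 260 and 234 CPM with P1-a2, 22 and 11.5 CPM with P2-a8, and 0.024 and 0 CPM in NC. It was 14.5-fold higher under P1-a2 (log2 fold change 3.86 ± 0.35 SE, adjusted p = 0.0038), and the P2-a8 libraries were further apart in proportion than the P1-a2 libraries. NR1I3, the constitutive androstane receptor of liver, lies beside APOA2 on chromosome 1 (161229666 to 161238302) and was at 9.01 and 10.6 CPM with P1-a2, 0.919 and 0.817 CPM with P2-a8, and 0 and 0.058 CPM in NC. It rose 11.2-fold (log2 fold change 3.49 ± 0.19 SE, adjusted p = 1.22e-18). MOGAT3, a monoacylglycerol acyltransferase of triglyceride synthesis, was at 33.4 and 37.8 CPM against 5.53 and 6.37 CPM, with 0.768 and 0.753 CPM in NC, and rose 6.02-fold. CIDEB, a lipid droplet protein that takes part in loading lipid onto lipoproteins, was at 20.4 and 24.1 CPM against 5.11 and 4.39 CPM, with 0.120 and 0.0869 CPM in NC, and rose 4.66-fold. In all 4 of these genes both isoforms stood above NC and P1-a2 stood above P2-a8.

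RBKS, a ribokinase, rose 6.34-fold under P1-a2 (15.3 and 15.3 CPM against 2.46 and 2.37 CPM). IL18R1, a receptor chain for interleukin 18, rose 3.56-fold. GPR35, a G protein-coupled receptor of intestinal epithelium, was at 161 and 173 CPM with P1-a2, 49.9 and 50.5 CPM with P2-a8 and 8.26 and 7.48 CPM in NC, and rose 3.33-fold. AKAP12, a scaffold for protein kinase A, was at 1046 and 1495 CPM against 288 and 275 CPM (log2 fold change 2.17 ± 0.25 SE, adjusted p = 0.00741). Its call was lost when a P2-a8 library was left out, at adjusted p = 0.0614 without replicate 1 and 0.0627 without replicate 2. The other members of the 12 largest rises were long non-coding RNAs: KIAA1614-AS1 (13.3-fold), LINC00526 (4.99-fold), and the chromosome 2 neighbours LINC01291 (3.41-fold) and LINC01293 (3.18-fold). KIAA1614-AS1, LINC00526, RBKS and CIDEB share exon bases with a gene on the opposite strand, and IL18R1 and GPR35 with one on the same strand. The strand setting of the counting is not given in the sources used here, so their counts may include reads of the partner.

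**Figure D1:**
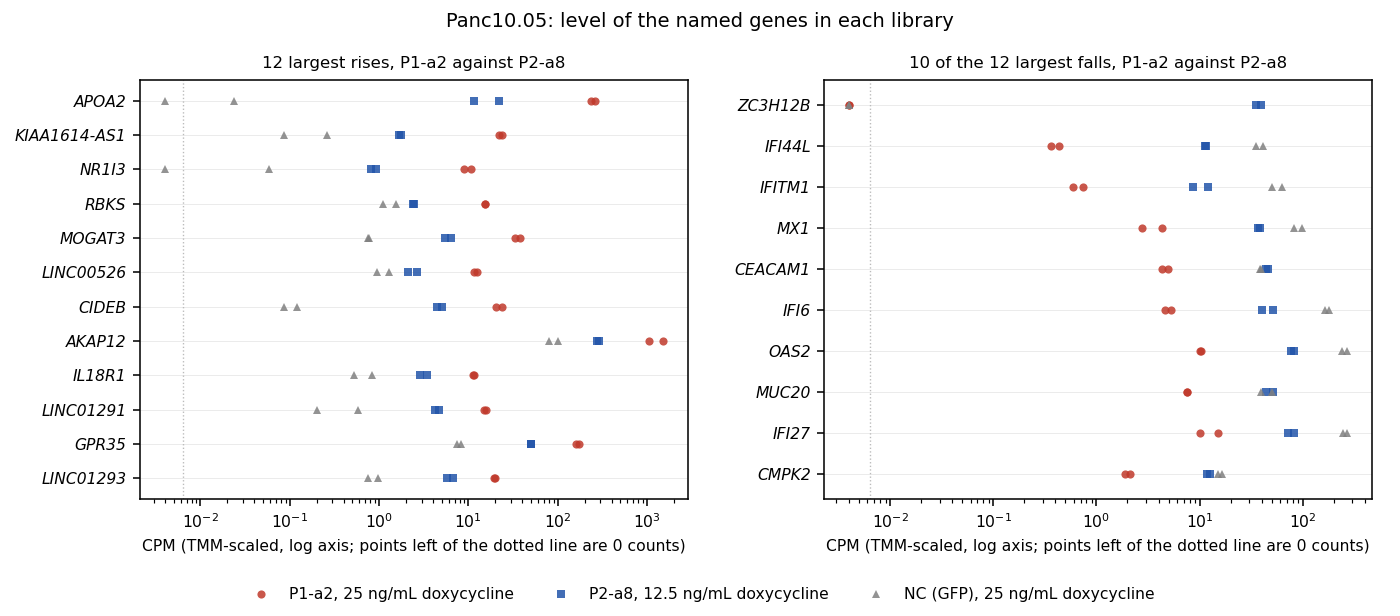
Level in each Panc10.05 library of the 12 genes with the largest rise (left) and 10 of the 12 with the largest fall (right), P1-a2 against P2-a8, in CPM on a log axis, each point 1 library. APOA2 sits at 234 to 260 CPM with P1-a2 against 11.5 to 22 CPM with P2-a8, whereas IFI44L sits at 0.359 to 0.435 CPM and 11.3 to 11.5 CPM. Isoform groups that do not overlap were a condition for choosing all 22 genes shown. Over all genes tested, 72.9% met that condition.

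Interferon-response genes filled much of the other end of the ranking: 7 of the 12 largest falls were members of the list of 55 interferon-stimulated genes used here. Of all 17247 genes tested, 54 were members. The list was written with earlier results of these data known, so this overlap is a description and not a test. IFI44L, an antiviral-response gene, was at 0.359 and 0.435 CPM with P1-a2, 11.3 and 11.5 CPM with P2-a8, and 35.4 and 41.1 CPM in NC, which made it 28.2-fold lower with P1-a2 than with P2-a8 (log2 fold change -4.82 ± 0.18 SE, adjusted p = 2.47e-24). IFITM1, a membrane protein that blocks virus entry, was at 0.591 and 0.739 CPM, 8.63 and 12.1 CPM, and 50.8 and 63.7 CPM in the same order, and was 15.2-fold lower. MX1, a dynamin-like GTPase that traps viral nucleocapsids, was at 2.75 and 4.33 CPM, 36.8 and 38.8 CPM, and 82.5 and 98 CPM, and was 10.5-fold lower. All 3 ran from P1-a2 at the bottom through P2-a8 to NC at the top, with no overlap between neighbouring groups. IFI6 was 9.13-fold, OAS2 7.70-fold, IFI27 6.10-fold and CMPK2 6.06-fold lower under P1-a2.

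The remaining large falls were of other kinds. ZC3H12B, a member of a family of CCCH zinc finger ribonucleases on chromosome X, had 1656 and 1404 counts in the P2-a8 libraries and 0 counts in all 4 P1-a2 and NC libraries, so that P1-a2 was at least 527-fold lower, taking 3 counts per library as the floor. LINC01813 on chromosome 2 (56077417 to 56090382) had 304 and 273 counts under P2-a8 and likewise 0 in the P1-a2 and NC libraries, at least 99.7-fold lower under P1-a2. For these 2 genes an effect of the isoform cannot be told apart from a property of the P2-a8 population itself. Such a property could be where the construct lies or descent from 1 clone. The same limit holds for every difference between the isoforms. CEACAM1, a cell adhesion molecule of epithelia, was at 4.37 and 4.89 CPM with P1-a2 against 46.7 and 44.0 CPM with P2-a8 and 39.7 and 39.0 CPM in NC. It was 9.77-fold lower (log2 fold change -3.29 ± 0.09 SE, adjusted p = 2.09e-28), and here P2-a8 lay close to NC. MUC20, a membrane mucin, fell 6.33-fold.

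Type I and type III interferons bind their receptors, activate the kinases JAK1 and TYK2 and so STAT transcription factors, which together with IRF9 bind interferon-stimulated response elements in promoters. Of the 54 list members that passed the filter on low counts, 51 were lower with P1-a2 than with P2-a8 (24.7% of all genes were), 34 of them at least 2-fold (5.45% of all genes), and 1 was higher. The median log2 fold change was -1.38. Against NC, 52 members were lower under P1-a2 (median -2.29) and 46 under P2-a8; both comparisons use the same NC libraries. IFIT1 (log2 fold change -2.25), IFIT3 (-2.25) and ISG15 (-1.68) were among those that fell. ISG15, the ubiquitin-like modifier, was at 44.5 and 49.1 CPM with P1-a2, 162 and 139 CPM with P2-a8 and 501 and 579 CPM in NC. The exception was SP100, a nuclear body component, at 158 and 156 CPM against 119 and 115 CPM (log2 fold change 0.43 ± 0.06 SE, adjusted p = 1.58e-07). SP110 (log2 fold change -0.06) and GBP3 (0.05) did not pass the threshold, and IRF7 did not pass the filter. Between 50 and 51 members were lower under each alternative of tool, scaling, filter, replicate block or left-out library.

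The transcription factors STAT2, IRF9 and IRF1, through which interferon receptors act, are themselves members of the list. STAT2, a transcription factor activated by the receptors, was at 49.9 and 49.3 CPM with P1-a2, 77.3 and 89.4 CPM with P2-a8 and 100.4 and 95.8 CPM in NC (log2 fold change between the isoforms -0.75 ± 0.07 SE, adjusted p = 4.26e-12). Its groups did not overlap and had P1-a2 lowest and NC highest. IRF9 (log2 fold change -1.32) and IRF1 (-0.59) fell too. Of 17 ligand, receptor and proximal signalling genes, 12 passed the filter, 4 were lower (24.7% of all genes were), none was higher and 8 did not pass the threshold by edgeR; DESeq2 also called 4 lower and 0 higher, and 0 were higher at an unadjusted p under 0.05. The receptor chain IFNAR1 (log2 fold change 0.06), JAK1 (0.10) and TYK2 (0.00) were among those that did not pass. The 4 that were lower were the receptor chains IFNAR2 and IFNGR2, SOCS3 and IFNE. The IFNAR2 call was lost without P1-a2 replicate 1 (log2 fold change -0.40). IFNE, an interferon of epithelia, was at 0.616 and 0.413 CPM with P1-a2 against 1.65 and 1.61 CPM with P2-a8 and fell by 1.67. IFNL1 had no counts under P1-a2, 0.0641 and 0 CPM with P2-a8, and 0.576 and 0.637 CPM in NC. At those levels the difference between the isoforms was not detectable (adjusted p = 0.137).

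The promoters of these genes were read in the RefSeq windows of GRCh38.p14, which run from 250 bases before to 50 bases after a gene's start. The core of the response element was searched as GAAANNGAA on both strands, with matches allowed to overlap. It was present in 28 of the 43 windows found for the list (65.1%), and in 2847 of all 35116 windows (8.11%). Of the 12 largest falls, 8 had a window and 6 of those held the core: IFI44L, IFITM1, MX1, CEACAM1, IFI6 and IFI27. None of the 10 windows found for the 12 largest rises held it. A match is a description of letters and not evidence of binding. The stretches below show where the core lies in 5 genes that fell under P1-a2, 4 from the list and CEACAM1 from outside it. Each ends at or before the gene's start and is written 5' to 3' on the gene's strand, with the matched letters of either strand in capitals.
IFI44L: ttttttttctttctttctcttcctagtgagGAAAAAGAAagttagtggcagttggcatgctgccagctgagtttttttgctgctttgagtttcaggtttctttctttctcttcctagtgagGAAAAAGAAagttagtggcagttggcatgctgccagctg
IFITM1: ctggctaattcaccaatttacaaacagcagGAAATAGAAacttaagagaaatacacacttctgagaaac
IFI6: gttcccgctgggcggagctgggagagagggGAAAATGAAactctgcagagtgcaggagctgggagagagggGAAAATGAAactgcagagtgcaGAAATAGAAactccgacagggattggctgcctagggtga
IFIT1: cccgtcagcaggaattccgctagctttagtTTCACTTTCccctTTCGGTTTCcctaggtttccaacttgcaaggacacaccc
CEACAM1: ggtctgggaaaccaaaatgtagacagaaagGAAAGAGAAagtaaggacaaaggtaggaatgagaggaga
These lie at chr1:78620254-78620413 on the plus strand, chr11:313970-314038 on the plus strand, chr1:27672247-27672378 on the minus strand, chr10:89392478-89392559 on the plus strand and chr19:42528559-42528627 on the minus strand. IFI44L holds the core 2 times within a repeated stretch, IFI6 3 times, and IFIT1 2 times in reverse orientation. IFITM1 and CEACAM1 hold it 1 time each.

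**Figure D2:**
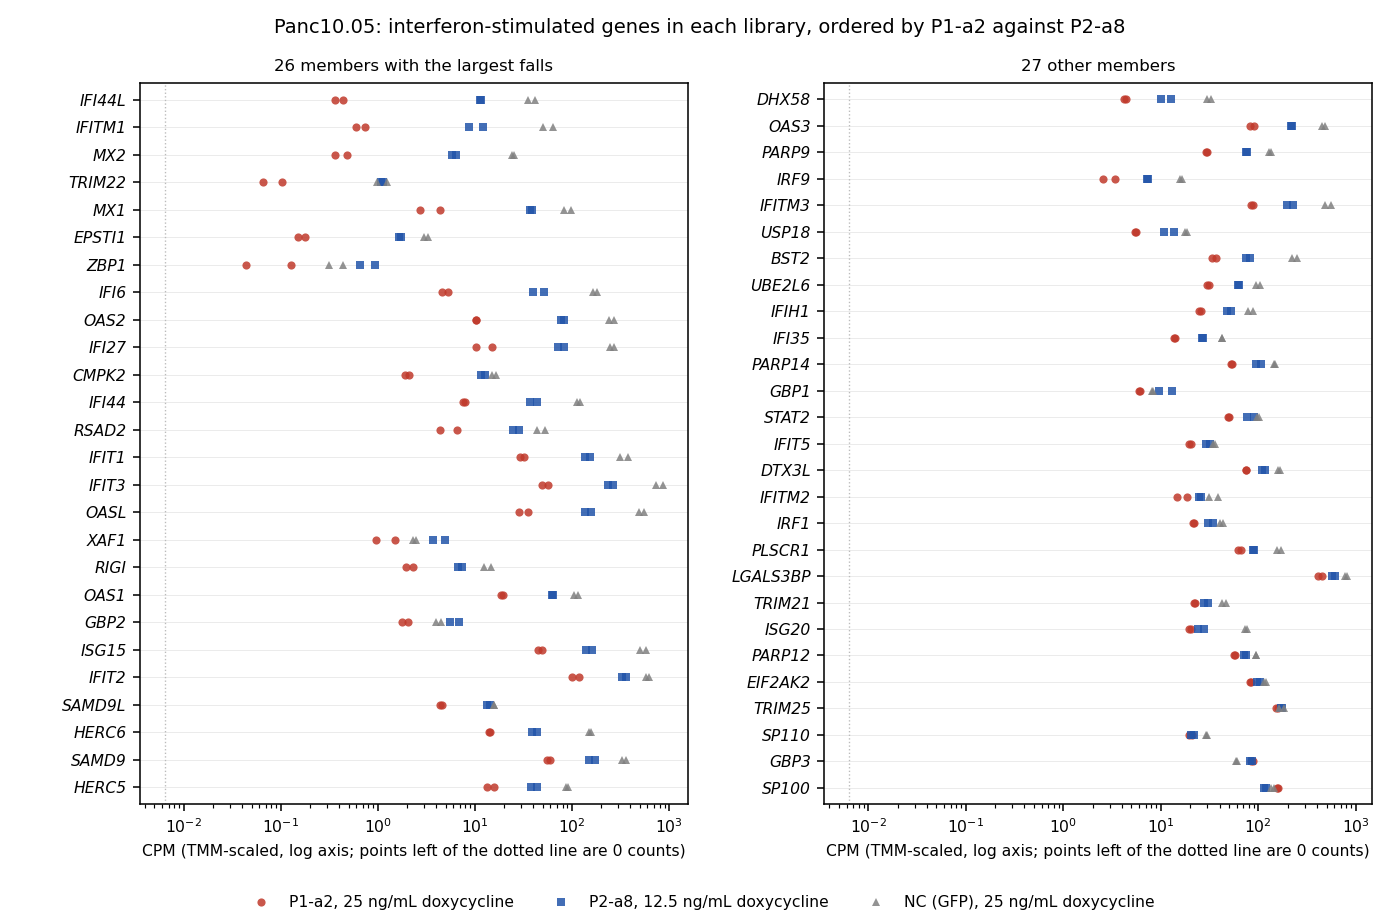
Level in each Panc10.05 library of 53 of the 54 interferon-stimulated genes that passed the filter, in CPM on a log axis, ordered by the log2 fold change of P1-a2 against P2-a8, each point 1 library. For ISG15 the P1-a2 libraries sit at 44.5 and 49.1 CPM, P2-a8 at 139 and 162 CPM and NC at 501 and 579 CPM, and SP100 is the member past the threshold with P1-a2 above P2-a8.

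Antigen presentation by MHC class I, which displays peptides cut by the proteasome to T cells, was lower under P1-a2 in 20 of its 21 list members, with a median log2 fold change of -0.52. The immunoproteasome subunit PSMB9 was at 4.21 and 5.35 CPM with P1-a2, 15.3 and 14.5 CPM with P2-a8 and 32.8 and 35.8 CPM in NC, and was 3.11-fold lower under P1-a2. B2M, the light chain of every class I molecule, was at 491 and 533 CPM, 990.5 and 887.7 CPM, and 1355 and 1393 CPM in the same order (log2 fold change -0.88 ± 0.06 SE, adjusted p = 2.10e-15). The heavy chain HLA-B fell (log2 fold change -0.99); class I heavy chains are near-identical over long stretches, so reads may be shared between them. The peptide transporter TAP1 (log2 fold change -1.01) and the class I transactivator NLRC5 (-0.93) fell as well. The chaperone CANX did not pass the threshold (log2 fold change 0.04). The response element core was present in 9 of the 17 windows found for this list.

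Genes of mitosis were also lower under P1-a2. Of 44 members, 42 fell, 14 of them at least 2-fold, and the median log2 fold change was -0.83. KIF20A, a kinesin of cytokinesis, had the largest fall: 31.3 and 38 CPM with P1-a2, 96.4 and 109 CPM with P2-a8, and 160 and 164 CPM in NC (log2 fold change -1.57 ± 0.08 SE, adjusted p = 4.25e-17). CCNB1, the cyclin that drives entry into mitosis, was at 154 and 156 CPM, 314 and 315 CPM, and 470 and 521 CPM, and was 2.03-fold lower under P1-a2. MKI67, the proliferation marker, was at 386 and 387 CPM, 629 and 655 CPM, and 762 and 709 CPM. These 3 genes followed the same order of groups, lowest in P1-a2 and highest in NC, without overlap. CENPM (log2 fold change -0.15) and BUB3 (-0.02) did not pass the threshold. Against the shared NC libraries all 44 members were lower under P1-a2, and 39 were lower and 2 higher under P2-a8.

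DNA replication genes differed less: 22 of 45 members were lower, 4 higher and 19 did not pass, with a median log2 fold change of -0.14. The number lower dropped to 9 without P1-a2 replicate 2, and the number higher to 2 without P1-a2 replicate 1. MCM2, a subunit of the replicative helicase, was at 267 and 230 CPM against 249 and 246 CPM (log2 fold change 0.00). Among G1 regulators, the CDK inhibitor CDKN2C was at 8.86 and 8.59 CPM with P1-a2, 27.9 and 28.6 CPM with P2-a8 and 62.6 and 69.6 CPM in NC, and fell 3.24-fold. The CDK inhibitor CDKN1A went the other way, at 234 and 257 CPM, 182 and 178 CPM, and 99.1 and 97.7 CPM (log2 fold change 0.45 ± 0.06 SE, adjusted p = 4.26e-08). In all, 11 of 19 G1 members were lower and 3 higher.

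Ribosome biogenesis, the making of ribosomal subunits in the nucleolus, rose under P1-a2 while mitotic genes fell. Of 35 members, 33 were higher (22.2% of all genes were) and none was lower by edgeR, and the median log2 fold change was 0.43. DESeq2 called 0 lower, and 0 were lower at an unadjusted p under 0.05. No member reached a 2-fold difference. Against the shared NC libraries, 29 members were higher and 0 lower under P1-a2 (median log2 fold change 0.45). Under P2-a8, 11 were higher and 7 lower than in NC (median 0.07). UTP4, a component of the small-subunit processome, was at 302 and 293 CPM with P1-a2, 161 and 155 CPM with P2-a8 and 104 and 96.1 CPM in NC (log2 fold change 0.91 ± 0.06 SE, adjusted p = 1.83e-16). RRP12, an export factor of ribosomal subunits, rose by 0.86 and RRP9 by 0.81. BOP1 (log2 fold change -0.10) and UTP20 (0.09) did not pass the threshold. MYC, a transcription factor known to drive ribosome production, was at 299 and 295 CPM with P1-a2, 177 and 179 CPM with P2-a8 and 239 and 245 CPM in NC. P1-a2 was 1.67-fold above P2-a8 for MYC (adjusted p = 4.84e-14), with the control between them.

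**Figure D3:**
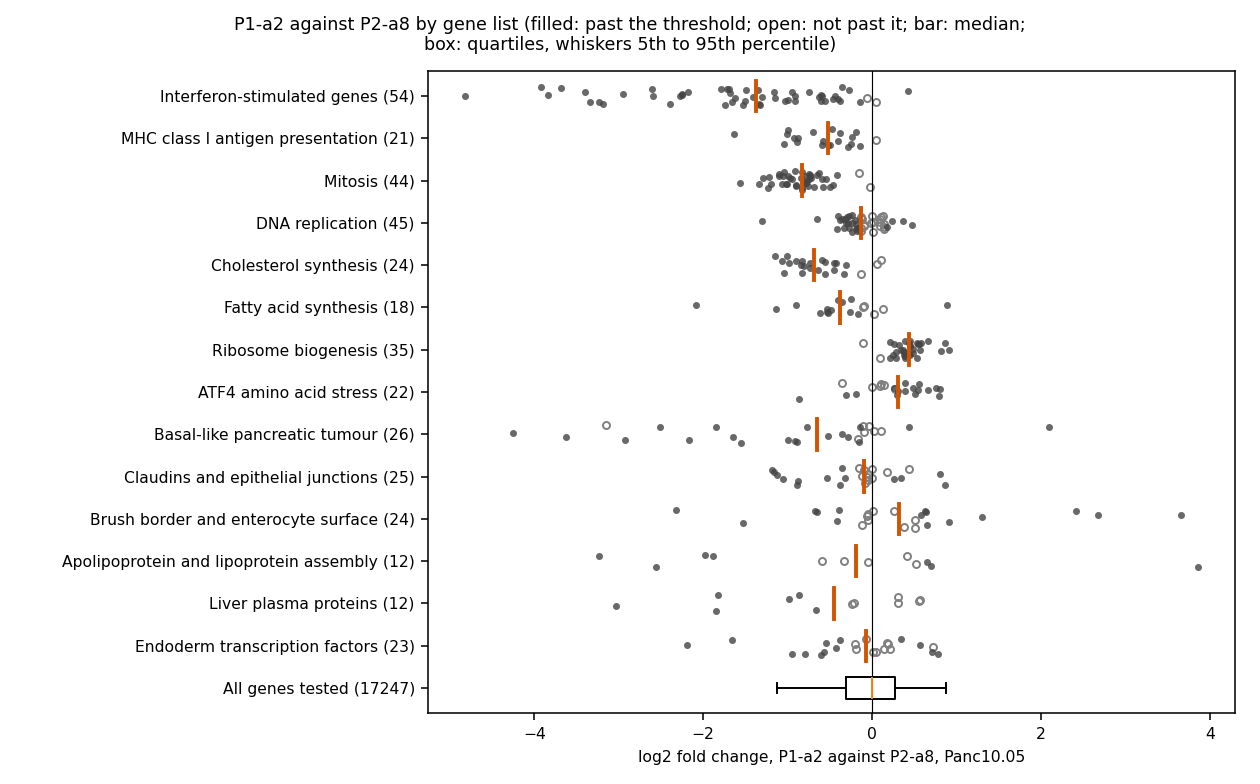
Log2 fold change of P1-a2 against P2-a8 for the members of 14 gene lists that passed the filter (number in brackets), with all 17247 genes tested as a box below. The interferon list has its median at -1.38, mitosis at -0.83, cholesterol synthesis at -0.69 and ribosome biogenesis at 0.43, while the median of all genes is 0.00.

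Cholesterol is made from acetyl-CoA through the mevalonate pathway, under the control of the transcription factor SREBF2. Of 24 genes of this pathway, 21 were lower with P1-a2 than with P2-a8 and 3 did not pass, with a median log2 fold change of -0.69. TM7SF2, a sterol reductase of the pathway, was at 14.9 and 17.2 CPM with P1-a2, 31.8 and 39.6 CPM with P2-a8 and 27.8 and 31.7 CPM in NC (log2 fold change -1.15 ± 0.10 SE, adjusted p = 5.84e-11). It shares exon bases with VPS51 on the same strand, so its counts may include reads of that gene. INSIG1, which retains the SREBF proteins in the endoplasmic reticulum, was at 30.2 and 29.6 CPM, 55.7 and 69.7 CPM, and 68.6 and 69.2 CPM in the same order (log2 fold change -1.06 ± 0.08 SE, adjusted p = 2.58e-13). For both genes the P1-a2 libraries lay below the other groups without overlap. SREBF2 itself fell as well (log2 fold change -0.56). Against the shared NC libraries, 15 members were higher and 1 lower under P2-a8, and 4 were higher and 14 lower under P1-a2. NSDHL (log2 fold change -0.13), DHCR7 (0.06) and PMVK (0.10) did not pass between the isoforms.

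Fatty acid synthesis moved in the same direction, with 13 of 18 members lower and 1 higher. SCD, which introduces the double bond into stearate, was at 165 and 229 CPM with P1-a2, 698 and 980 CPM with P2-a8 and 762 and 758 CPM in NC, and was 4.26-fold lower (log2 fold change -2.09 ± 0.28 SE, adjusted p = 0.0108). SREBF1, the lipogenic SREBF gene, was at 23.3 and 28.2 CPM, 52.9 and 61.3 CPM, and 131 and 129 CPM. The member that rose was MLXIPL, a glucose-responsive lipogenic transcription factor, at 12.9 and 16.3 CPM against 7.43 and 8.40 CPM, with 0.961 and 0.927 CPM in NC. PCK1, the entry enzyme of gluconeogenesis, had 16 and 23 counts under P2-a8 and 0 counts in the P1-a2 and NC libraries.

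The liver and intestine genes for which HNF4A is best known did not move as a block. Of 22 apolipoprotein and lipoprotein genes, 8 were at 3 counts or fewer in all 6 libraries and 12 passed the filter. Of the 12, 3 were higher under P1-a2, 4 lower and 5 not past the threshold. Over all genes tested 22.2% were higher and 24.7% lower, the background for this list and the brush border list below. APOA2, described above, rose, while 3 neighbouring apolipoprotein genes on chromosome 11 fell. APOA1, the main protein of high-density lipoprotein (116835751 to 116837950), was at 3.93 and 7.96 CPM with P1-a2, 35.7 and 35.5 CPM with P2-a8, and 0 and 0.145 CPM in NC. It was 5.89-fold lower under P1-a2 (log2 fold change -2.56 ± 0.37 SE, adjusted p = 0.0116), a call lost without P2-a8 replicate 1 (adjusted p = 0.0745) or replicate 2 (0.0698). APOA4, a protein of chylomicrons, was at 0.411 and 0.804 CPM against 2.67 and 2.23 CPM, and APOC3, an inhibitor of triglyceride clearance, at 0.282 and 0.370 CPM against 1.54 and 0.873 CPM. Both had no counts in NC, and their log2 fold changes were -1.98 and -1.89. APOA1, APOA4 and APOC3 were thus detected under both isoforms and higher under P2-a8, whereas APOA2 was higher under P1-a2. APOB, the core protein of very low density lipoprotein, stayed between 0.0855 and 0.282 CPM under both isoforms and did not pass the threshold. In the list of intestinal lipid uptake, the paralogues MOGAT3 and MOGAT2 separated: MOGAT2 was at 0.103 and 0.239 CPM with P1-a2 against 1.56 and 1.10 CPM with P2-a8, and fell 7.53-fold.

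The brush border is the microvillus surface of enterocytes. Of 31 members of its list 24 passed the filter, 9 were higher under P1-a2, 6 lower and 9 not past the threshold, with a median log2 fold change of 0.32. Against the shared NC libraries 19 of the 24 were higher under P1-a2 and 20 under P2-a8. VIL1, the actin bundler of microvilli, was at 55.5 and 60.9 CPM with P1-a2, 23.1 and 24.1 CPM with P2-a8, and 0.168 and 0.058 CPM in NC (log2 fold change between the isoforms 1.30 ± 0.08 SE, adjusted p = 4.33e-17). MUC17, a membrane mucin of the intestinal glycocalyx, was at 8.68 and 6.98 CPM against 0.769 and 0.423 CPM and rose 12.6-fold. The digestive enzymes ALPI and ANPEP rose 6.35-fold and 5.32-fold from levels under 0.3 CPM. SLC15A1, the peptide transporter, went the other way, at 24.55 and 29.96 CPM with P1-a2, 40.7 and 45.3 CPM with P2-a8 and 2.4 and 2.0 CPM in NC. The iron oxidase HEPH also fell (log2 fold change -1.53).

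**Figure D4:**
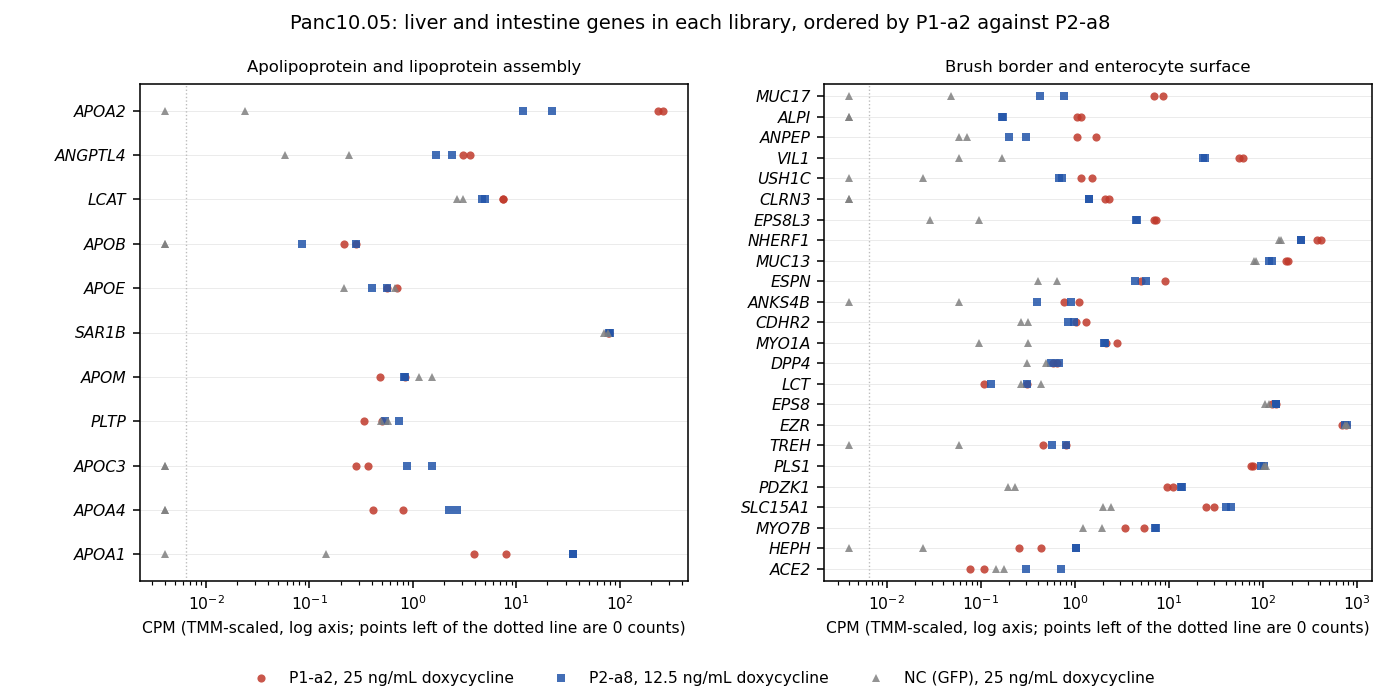
Level in each Panc10.05 library of 11 of the 12 apolipoprotein and lipoprotein genes (left) and the 24 brush border genes (right) that passed the filter, in CPM on a log axis, ordered by the log2 fold change of P1-a2 against P2-a8, each point 1 library. P1-a2 lies above P2-a8 for APOA2 and VIL1, with VIL1 at 55.5 to 60.9 against 23.1 to 24.1 CPM, and below it for APOA1 and SLC15A1, with SLC15A1 at 24.55 to 29.96 against 40.7 to 45.3 CPM.

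The HNF4 motif, searched as CAAAGTCCA on both strands, was present in 135 of the 35116 windows (0.384%). It was present in 3 of the 23 windows found for the brush border list (PDZK1, TREH and MUC13), in none of 16 for the apolipoprotein list, and in 1 of 10 for the 12 largest rises (GPR35). In Panc10.05 these genes did not move one way: MUC13 and GPR35 rose, PDZK1 was lower under P1-a2 at 9.45 and 11 CPM against 13.7 and 13.5 CPM (a call lost without P1-a2 replicate 1, adjusted p = 0.0624), and TREH did not pass the threshold. Elsewhere among the lists the motif was present for CD68, which rose, for F10, which did not pass, and for PROZ, AHSG, CYP2B6 and CYP2C8, which were at 3 counts or fewer in all 6 libraries. The stretches of the 2 genes that rose and whose match lies before the start are shown, with the match in capitals on the reverse strand.
GPR35: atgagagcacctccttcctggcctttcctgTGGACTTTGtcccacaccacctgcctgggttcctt
MUC13: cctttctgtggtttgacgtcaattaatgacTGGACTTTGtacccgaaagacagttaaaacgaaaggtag
They lie at chr2:240605365-240605429 on the plus strand and chr3:124934764-124934832 on the minus strand. MUC13, an epithelial mucin, was at 174 and 182 CPM with P1-a2, 123 and 114 CPM with P2-a8 and 83.1 and 79.6 CPM in NC (log2 fold change between the isoforms 0.58 ± 0.06 SE, adjusted p = 1.69e-10).

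Of 48 secreted liver proteins, 28 were at 3 counts or fewer in all 6 libraries. Of the 12 that passed the filter, 6 were lower under P1-a2 and none was higher by edgeR, although 1 was higher at an unadjusted p under 0.05 and 1 was higher by the adjusted p without P2-a8 replicate 2. DESeq2 called 0 higher. VTN, the adhesive plasma protein vitronectin, was at 0.642 and 0.804 CPM against 5.68 and 6.31 CPM, with 0.0961 and 0 CPM in NC, and fell 8.18-fold. SERPINA1, the elastase inhibitor, was at 22.1 and 18.6 CPM with P1-a2, 39.7 and 41.0 CPM with P2-a8 and 45.5 and 47.3 CPM in NC. Complement C3 was above NC under both isoforms, at 19.6 and 28.3 CPM with P1-a2 and 46.5 and 41.1 CPM with P2-a8 against 4.23 and 3.19 CPM. Between the isoforms it was 1.82-fold lower under P1-a2. Among 23 endoderm transcription factors, 9 were lower, HNF4A and HNF4G among them, and 4 higher (2 without P2-a8 replicate 2). HNF4A is itself the induced gene and its counts may include the construct's transcript, so its lower count cannot be read as a response of this list. PDX1, the pancreas master regulator, was at 0.180 and 0.217 CPM against 0.684 and 1.21 CPM and fell by 2.20 on the log2 scale. GATA6, a marker of the classical tumour subtype, was at 10.8 and 9.61 CPM against 6.77 and 7.01 CPM and rose by 0.57.

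Epithelial junction genes divided. Of 25 members 10 were lower under P1-a2 (24.7% of all genes were), 4 higher (22.2%) and 11 not past the threshold. The 4 that rose were CLDN12, CLDN15, CLDN23 and MARVELD3, none of them 2-fold. CDH1, the adhesion protein E-cadherin, was at 96.1 and 105 CPM with P1-a2, 211 and 229 CPM with P2-a8 and 161 and 145 CPM in NC, with the control between the isoforms (log2 fold change -1.13 ± 0.06 SE, adjusted p = 4.73e-18). CLDN7 and OCLN, tight junction proteins, and the epithelial regulators GRHL2 and ESRP1 fell 1.85-fold, 1.84-fold, 2.23-fold and 2.08-fold. The transcription factors ZEB1 and SNAI2, known to repress CDH1, rose. ZEB1 was at 16.4 and 15.7 CPM against 9.17 and 8.40 CPM, and SNAI2 at 87.2 and 76.5 CPM against 39.2 and 36.7 CPM. Whether their rise bears on CDH1 was not tested. The mesenchymal list as a whole held 5 members that rose (3 without P1-a2 replicate 2 or without P2-a8 replicate 1) and 11 that fell of 21, and FN1, the matrix protein fibronectin, was at 38.7 and 42.5 CPM against 90.9 and 125 CPM. Of 26 genes of the basal-like tumour subtype 17 were lower and 2 higher, with a median log2 fold change of -0.65. The TEAD cofactor VGLL1 was at 0.282 and 0.196 CPM against 3.70 and 5.47 CPM, with 0.624 and 0.550 CPM in NC, and FGFBP1, a carrier of fibroblast growth factors, at 0.308 and 0.304 CPM against 3.48 and 4.17 CPM, with 13.2 and 12.7 CPM in NC. Of 33 genes of the classical subtype, 14 were at 3 counts or fewer in all 6 libraries and 13 passed the filter. Of the 13, 5 fell and 2 rose, MUC1 among those that fell at 19.5 and 19.3 CPM against 66.0 and 73.1 CPM.

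Genes of the ATF4 amino acid stress response were higher in 13 of 22 members and lower in 3, with ASNS, asparagine synthetase, up by 0.80 and the factor ATF5 by 0.79 on the log2 scale. ATF4 itself did not pass the threshold (log2 fold change 0.14). Targets of NRF2, the oxidative stress regulator, were higher in 9 of 19 and lower in 2 (1 without P2-a8 replicate 2). NQO1, a quinone reductase, was at 417 and 403 CPM with P1-a2, 261 and 234 CPM with P2-a8 and 122 and 127 CPM in NC. Of 24 inflammatory NF-kB genes 8 were higher (5 by DESeq2 or without P2-a8 replicate 1) and 8 lower; IL1A rose 2.57-fold, and LCN2, the iron-sequestering lipocalin, fell 3.93-fold. Of 21 YAP and TEAD genes 11 were lower and 2 higher, WWTR1, the cofactor TAZ, falling by 0.91. Of 22 genes in the Wnt list, 6 were at 3 counts or fewer in all 6 libraries and 9 passed the filter. Of the 9, 4 were lower, among them the ubiquitin ligase RNF43 (-1.28) and the receptor LGR4 (-1.07). None was higher by edgeR, either adjusted or at an unadjusted p under 0.05 (0 genes), or by DESeq2. Glycolysis (6 higher and 11 lower of 27) and fatty acid oxidation (9 higher and 7 lower of 25) were mixed. For these and the lists that follow, the shares over all genes tested were 22.2% higher and 24.7% lower. The drug metabolism list holds 48 genes, of which 23 were at 3 counts or fewer in all 6 libraries and 21 passed the filter. Of 21 drug metabolism genes 3 were higher (1 by DESeq2) and 7 lower (4 without P2-a8 replicate 1). Of 13 mitochondrially encoded proteins 2 were higher (1 without P2-a8 replicate 1) and 7 lower.

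Some genes stood on opposite sides of the control. With all 3 contrasts of the table past the threshold, BCAM, a laminin receptor, was at 15.2 and 19.2 CPM with P1-a2, 66.3 and 72.7 CPM with P2-a8 and 34 and 37.9 CPM in NC. LAMP3, a lysosomal membrane protein, was at 6.65 and 7.61 CPM, 34.1 and 36.3 CPM, and 21.1 and 17.1 CPM. NECTIN4, an adhesion protein of epithelia, was at 6.32 and 8.02 CPM, 25.4 and 27.8 CPM, and 16.2 and 12.8 CPM. In these 3 genes P1-a2 lay below NC and P2-a8 above it. The opposite order was found for NSUN5, an RNA methyltransferase, at 43.8 and 48.6 CPM with P1-a2, 23.7 and 24.8 CPM with P2-a8 and 32.9 and 32.6 CPM in NC. C7orf57, KCNJ14 and LINC02742 had that order too, with log2 fold changes between the isoforms of 1.19, 1.00 and 1.01.

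The BxPC3 libraries give the same pair of isoforms at a matched dose and with closer HNF4A levels, although line, dose, control construct and count table all differ from Panc10.05. There 3963 of 17635 genes (22.5%) passed, 11.6% higher and 10.8% lower under P1-a2. Of 15476 genes tested in both lines, 2326 passed in both, which is 28.8% of the Panc10.05 calls and 58.7% of the BxPC3 calls. These percentages are of all calls of a line, including genes not tested in the other. Over all genes tested, 22.5% passed in BxPC3 and 46.9% in Panc10.05. Of the 2326, 1840 had the same direction and 486 the opposite. The isoform difference itself differed between the lines for 4318 of 19372 genes (22.3%) in a fit of all 12 libraries, 8.81% with a higher and 13.5% with a lower value in Panc10.05. APOA2 (log2 fold change 4.72 in BxPC3), AKAP12 (2.57), MOGAT3 (2.06) and GPR35 (2.24) were higher with P1-a2 in each of the lines. The BxPC3 call for AKAP12 was lost without P2-a8 replicate 1 (adjusted p = 0.113) or replicate 2 (0.09). IFITM1 (-1.02 in BxPC3), SERPINA1 (-1.37), BCAM (-0.96) and MUC1 (-0.93) were lower in both.

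Cholesterol synthesis differed in direction between the lines. In BxPC3, 14 of its 24 genes were higher under P1-a2 and none was lower by edgeR (0 also at an unadjusted p under 0.05, and 0 by DESeq2), with a median log2 fold change of 0.33 against -0.69 in Panc10.05. The difference between the lines passed for 23 of the 24, all lower in Panc10.05. TM7SF2 was at 40.4 and 47.4 CPM with P1-a2 in BxPC3 against 24.8 and 28.0 CPM with P2-a8 (log2 fold change 0.74), and its difference between the lines was -1.88 ± 0.16 SE (adjusted p = 5.29e-08). Interferon-stimulated genes were lower under P1-a2 in BxPC3 in 24 of 53 members and higher in 1, with a median of -0.32, and the difference between the lines passed for 44 members with the lower and 1 with the higher value in Panc10.05, of 54. The 24 became 15 without the BxPC3 P1-a2 replicate 1 and 14 without the BxPC3 P2-a8 replicate 2. Mitosis had the same direction as in Panc10.05, with 35 of 44 lower (21 without the BxPC3 P1-a2 replicate 1) and a median of -0.49. The difference between the lines passed for 16 mitosis genes, and for 30 with the lower value in Panc10.05 when the BxPC3 P2-a8 replicate 2 was left out. Ribosome biogenesis had the same direction too, with 23 of 35 higher and a median of 0.32, but the difference between the lines passed for 12 of its members with the higher and 1 with the lower value in Panc10.05. The 12 became 3 to 5 with either Panc10.05 P1-a2 library or Panc10.05 P2-a8 replicate 2 left out (4 without P1-a2 replicate 2, 3 without P2-a8 replicate 2), and 7 or 8 with BxPC3 P1-a2 replicate 2, P2-a8 replicate 1 or P2-a8 replicate 2 left out. Brush border genes were higher in 20 of 25 members in BxPC3 with a median of 1.30, and the difference passed for 12 members with the lower and 1 with the higher value in Panc10.05, of 26. APOA1 was at 64.2 and 75.2 CPM with P1-a2 in BxPC3 and 7.55 and 6.98 CPM with P2-a8, the reverse of its order in Panc10.05, and the difference between the lines was -5.81 ± 0.67 SE. APOA4 (2.87 in BxPC3) and APOC3 (3.12) were likewise higher under P1-a2 there.

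**Figure D5:**
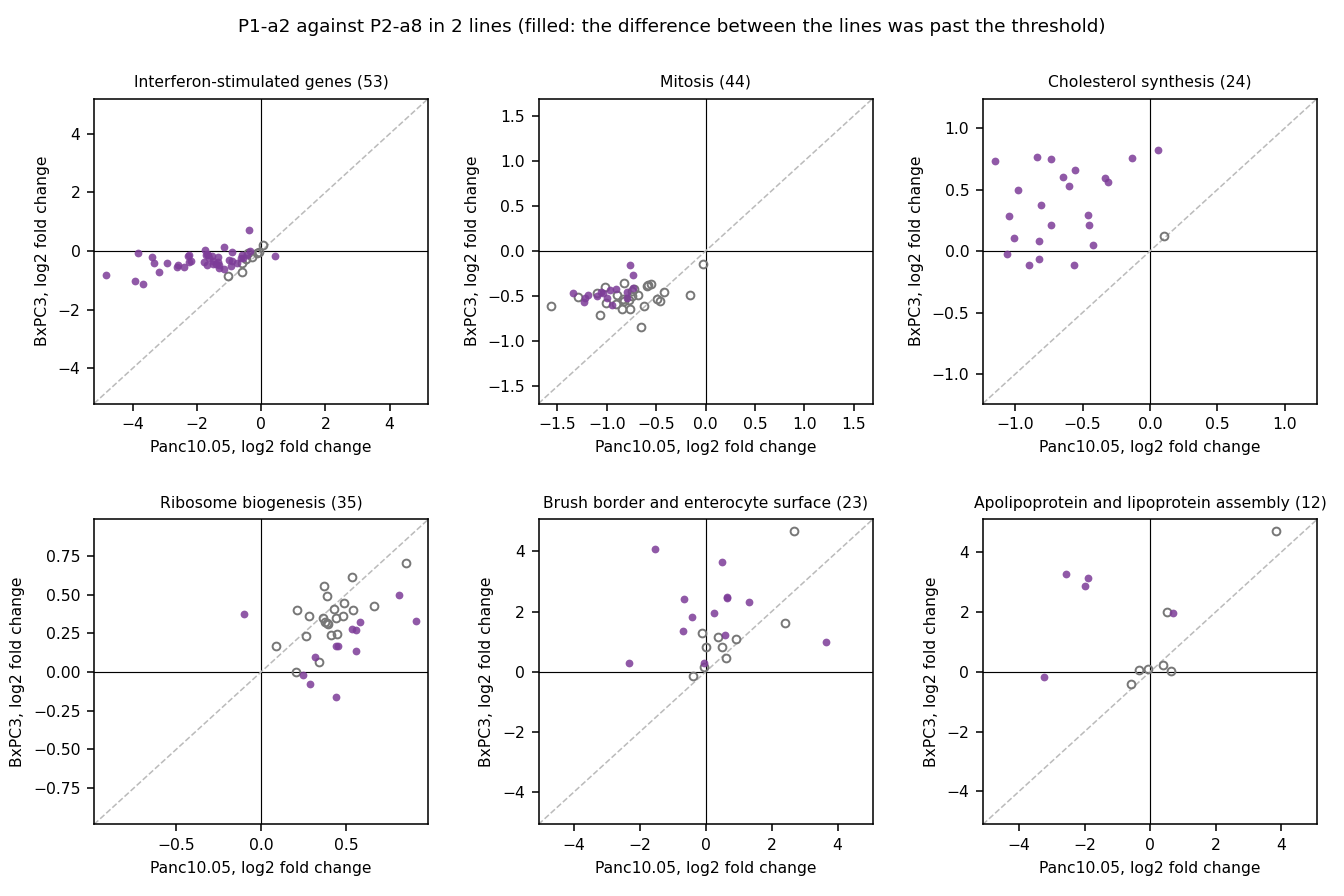
Log2 fold change of P1-a2 against P2-a8 in Panc10.05 (horizontal) and in BxPC3 (vertical) for the members of 6 gene lists tested in both lines, each point 1 gene, with the dashed line marking equal values. For cholesterol synthesis the medians are -0.69 and 0.33, for mitosis -0.83 and -0.49, and for ribosome biogenesis 0.43 and 0.32; axis ranges differ between panels.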

How the data were processed

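RNA was measured as gene-level read counts in 12 libraries, 6 of Panc10.05 and 6 of BxPC3, and the AsPC-1 libraries are not used here. The authors deposited raw counts per gene for each line, per the file headers. The submitters' processing notes name cutadapt 1.16, STAR 2.7.9a, featureCounts 1.6.3, DESeq2 1.36.0 and GRCh38. The annotation release and the strand setting are not given in the sources used here. Groups came from genotype, line and dose in the labels.

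Each table was fitted with edgeR 4.0.16 in R 4.3.3: filterByExpr by group, TMM scaling, a robust quasi-likelihood fit of 3 groups sharing 1 estimate of the spread, and an F test with Benjamini-Hochberg adjustment over all genes tested, threshold 0.05. CPM values use TMM-scaled library sizes. The standard error is the log2 fold change divided by the square root of F. The difference between lines was an interaction contrast over the 12 libraries. Total counts were 34618745 to 46827673 in Panc10.05 and 26369154 to 37483772 in BxPC3, and 3 counts, the floor, correspond to 0.0641 to 0.0869 CPM in Panc10.05. Symbols came with 99.88% of identifiers, and coordinates are those of GENCODE release 29.

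Genes named are HNF4A and HNF4G; the 12 largest rises and falls past the threshold with a mean of at least 5 CPM and no overlap; up to 4 members per list and direction with a mean of at least 1 CPM, plus members whose role is described; genes on opposite sides of NC or shared or opposite between lines; and genes at 3 counts or fewer under 1 isoform. Some genes that this rule selects are not reported here, although counts over lists include them. A few list members below 1 CPM (PDX1, MOGAT2, APOB, APOC3, PCK1, HEPH, ALPI, ANPEP and IFNL1), the marker genes beyond the rule and the genes holding the HNF4 motif were named after their values were seen. The members and the 33 lists were chosen with earlier results of these data known. Replicates of a group differed by more than sampling noise, with a chi-square of 5.08 to 8.07 per degree of freedom. Code was tested on simulated data. Alternatives tried were DESeq2 1.42.0, other scalings, no filter, only the compared groups, a replicate block, each library left out, and a 2-fold limit on the change.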

Additional observations from a re-analysis of the deposited data

Results flagged for a closer look

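The isoform difference itself differed between Panc10.05 and BxPC3 for 121 of 199 named genes, by the interaction test with an adjusted p under 0.05. Over all genes tested it passed for 4318 of 19372 (22.3%). Rules for naming used the Panc10.05 changes and, for some genes, this test itself, so the share among named genes was raised by that choice. The 27 given here are those named as HNF4 genes, as the largest rises and falls, or as shared or opposite between the lines. The values are the log2 fold change in Panc10.05 minus that in BxPC3. Among the regulators and the largest rises, the difference was -1.33 for HNF4A, 4.33 for KIAA1614-AS1, -2.77 for NR1I3, 1.49 for RBKS, 1.11 for LINC00526, 0.67 for CIDEB, 1.63 for IL18R1 and -0.50 for GPR35. NR1I3 and GPR35 rose in both lines, and by more in BxPC3. Among the largest falls it was -4.0 for IFI44L, -2.90 for IFITM1, -3.17 for MX1, -3.47 for CEACAM1, -2.47 for IFI6, -2.52 for OAS2, -1.94 for MUC20, -2.06 for IFI27 and -2.11 for CMPK2. BCAM (-1.04) and MUC1 (-0.90) were lower under P1-a2 in both lines, and by more in Panc10.05.

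Of the genes past the threshold in both lines with opposite directions, IMPA2 (1.62), MYRF (1.56), THAP9-AS1 (1.38) and CPNE7 (1.35) were higher under P1-a2 in Panc10.05 and lower in BxPC3. APOA1 (-5.81), CAPN8 (-4.42), SLCO2B1 (-3.19) and TMEM176B (-3.15) were lower under P1-a2 in Panc10.05 and higher in BxPC3. Line, dose, HNF4A level, control construct and count table change together in this test and cannot be told apart.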

How the results depend on the processing

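The count of genes past the threshold in Panc10.05 between the isoforms ranged from 6435 to 6660 with 1 library left out. Among the 199 named genes past the threshold there, 171 passed under each of 10 alternatives of tool, scaling, filter, groups fitted, replicate block or left-out library, 28 were lost under at least one of these and none reversed; the 2-fold limit is not among the 10. In BxPC3 the count ranged from 2538 to 3013 with 1 library left out, the lowest without P2-a8 replicate 1, and was 2566 without P1-a2 replicate 2, against 3963 with all. A 2-fold limit on the change left 1455 genes between the isoforms in Panc10.05, 3385 between P1-a2 and NC, 1663 between P2-a8 and NC, 526 between the isoforms in BxPC3 and 1078 for the difference between lines, by construction fewer. This limit moved the share of higher calls between the isoforms from 47.4% to 35.4% in Panc10.05 and from 51.8% to 76.0% in BxPC3, that between P2-a8 and NC from 51.3% to 70.7%, and that for the difference between lines from 39.5% to 24.8%. No scaling moved the median of all genes by over 0.1 on the log2 scale. For the named genes, an alternative that did not test a gene or gave it no adjusted p was passed over. Passing under each of the 10 therefore means under those that tested the gene.

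Replicate numbers are shared by the groups, but same-numbered libraries did not deviate together in Panc10.05 (correlations -0.00577, 0.00733 and -0.0119), and in BxPC3 they were 0.131, 0.0727 and 0.131. A replicate block gave 7857 genes between the isoforms in Panc10.05, 5992 in BxPC3 and 5322 for the difference between lines; the cause was not tested. With 2 libraries per group, precision rests on the spread shared over 3 groups, and values near 3 counts carry large counting error.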

Other observations

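The levels behind 4 of the genes with opposite directions in the lines were above NC with both isoforms in Panc10.05 and differed between them. SLCO2B1, an uptake transporter for organic anions, was at 7.81 and 8.80 CPM with P1-a2, 16.7 and 16.5 CPM with P2-a8, and 0.024 and 0.058 CPM in NC. CAPN8, a calpain of the stomach lining, was at 7.27 and 5.87 CPM, 19.6 and 20.3 CPM, and 0.745 and 0.840 CPM in the same order. TMEM176B, a membrane protein, was at 4.39 and 4.57 CPM and 9.06 and 8.40 CPM, with no counts in NC. MYRF, a membrane-bound transcription factor, had the opposite order, at 59.0 and 59.2 CPM with P1-a2, 26.7 and 27.5 CPM with P2-a8, and 5.26 and 5.22 CPM in NC.

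A few genes had at most 3 counts in each library of 1 isoform. LINC01709, a long non-coding RNA, had 27 and 27 counts under P1-a2 and 0 in the P2-a8 and NC libraries, so that P1-a2 was at least 8.62-fold higher, taking 3 counts per library as the floor. ABCA6, a lipid transporter of the ABC family, had 84 and 142 counts under P1-a2, 3 and 1 under P2-a8, and 9 and 5 in NC. RTP4, an interferon-induced chaperone of receptors, had 3 and 1 counts under P1-a2, 46 and 48 under P2-a8, and 72 and 64 in NC.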
